A study of Oryza sativa with 12 samples.

Results

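The response of rice roots to salt alone was described from 6 RNA-seq libraries of a series of 12. The roots were wild-type Oryza sativa. Of these libraries, 3 came from roots given NaCl at 100 mM for 72 h and 3 from untreated roots, for which the labels give no time, so that a difference in sampling time cannot be told apart from the salt. The series also holds 3 libraries from roots given spermidine and 3 from roots given spermidine with NaCl, which entered the shared estimate of spread and the filter on mean FPKM. The labels do not say whether the libraries of a group came from separate plants or cultures, so each p-value reflects the spread among these libraries alone, and that spread may be technical.

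The feature measured was the unigene, a cluster of transcripts assembled without a genome, and the value was its deposited FPKM, a fragment count scaled by transcript length and library total. The members were the unigenes whose best hit in the NR protein database was an Oryza protein, 68051 of the 182689 unigenes in the table. Of them, 41491 (60.97%) averaged at least 1 FPKM over the 12 libraries and were tested. A unigene was called higher or lower where limma's moderated test of log2(FPKM + 1), adjusted by the Benjamini-Hochberg method over all 65836 unigenes tested, gave an adjusted p below 0.05. Below, a log2 change is the mean log2(FPKM + 1) of the NaCl libraries minus that of the untreated libraries, ± its standard error from that fit. Several unigenes can stand for pieces or alleles of a single gene, near-identical unigenes share reads and their levels are uncertain, and names taken from proteins of other species are those of the nearest described relative.

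Salt in the root medium lowers the water available to the root and brings in Na+, which competes with K+. Roots are known to answer through abscisic acid (ABA), jasmonate and ethylene, through Ca2+ and reactive oxygen signals, and through transcription factors such as the DREB, NAC and WRKY families. Those programmes reach osmoprotectants, detoxifying enzymes, cell wall barriers and ion transporters such as HKT1;5 and SOS1, which keep Na+ out of the shoot.

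Libraries of a group resembled each other more than those of the other group. On log2(FPKM + 1) over the rice-hit unigenes tested, correlations between libraries ran from 0.955 to 0.961 within the NaCl group and from 0.95 to 0.953 within the untreated group, against 0.827 to 0.853 between them. Summed FPKM lay between 1312574 and 1371598.5 in these 6 libraries, and rice-hit unigenes held 80.4% to 81.6% of it in NaCl libraries and 73.8% to 78.2% in untreated libraries. FPKM values carry no read depth. The most frequent ratio between low values of the libraries gave relative depths of 0.924 to 1.082.

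Markers of root tissue were abundant in both groups. A cortical cell-delineating protein, a marker of root cortex, had 1485, 1719 and 1682 FPKM in the NaCl libraries, against 1764, 1804 and 1609.7 FPKM in the untreated libraries, and the groups overlapped. Casparian strip membrane protein 1, which marks the endodermis, had 110.0, 145 and 123 FPKM in the NaCl libraries, against 112, 109 and 118 FPKM in the untreated libraries. Of the 33 root tissue markers tested 5 were called higher and 10 lower (7 higher and 8 lower under median-ratio scaling). As deposited, 15.2% were higher and 30.3% lower, against 12.4% and 14.7% of all rice-hit unigenes tested. These markers held 0.507% to 0.563% of rice-hit FPKM in NaCl libraries against 0.644% to 0.677% in untreated libraries. Shoot markers, such as chlorophyll a-b binding proteins, held 0.0054%, 0.0042% and 0.0225% in the NaCl libraries and 0.0057%, 0.0053% and 0.005% in the untreated libraries, with 2 of 22 called higher. NaCl replicate 3 thus stood above the rest in shoot markers. SHORT-ROOT 1, which patterns the endodermis, had 12.1, 12.1 and 11.4 FPKM in the NaCl libraries, against 25.4, 21.8 and 22.2 FPKM in the untreated libraries (log2 change -0.90 ± 0.08, adjusted p = 4.8e-05), and both SHORT-ROOT 2 unigenes were lower too. Of other markers, 1 of 6 of root hairs was called higher, 2 of 13 of the root tip lower and 1 of 11 organelle transcripts lower. In whole roots, fewer cells of a type and less RNA per cell cannot be told apart, and the part of these markers in the results below was not tested.

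The salt response was broad, and its rises were larger than its falls. Of the 41491 rice-hit unigenes tested, 5157 (12.4%) were called higher and 6089 (14.7%) lower, 27.1% in all, against 22.9% of all unigenes tested. The median log2 change was 1.37 among those called higher and -0.74 among those called lower. A change of at least 2 on the log2 scale was reached by 1657 rises and 243 falls, at least 4 by 377 rises and 3 falls, and at least 5 by 166 rises and 0 falls. Among called unigenes, 5134 of the 5157 rises and 6045 of the 6089 falls had no overlap between the 6 libraries. Over all rice-hit unigenes tested, called or not, 17.4% were higher and 26.9% lower without overlap. Counts called in the gene lists below are to be read against the 12.4% called higher and 14.7% called lower.

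The balance of rises to falls depended on the scaling and on the filter. The median rice-hit unigene moved by -0.12 on the log2 scale as deposited and by -0.0007 after median-ratio scaling, so a change is best read relative to that shift. Rises made up 45.9% of the calls as deposited and 61.7% after median-ratio scaling, which called 15.2% higher and 9.41% lower. They made up 49.7% under quantile normalization, 36.2% with the rice-hit total set equal in each library and 52.3% with no filter on low values. The largest rises and falls described below were far beyond this shift.

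**Figure D1:**
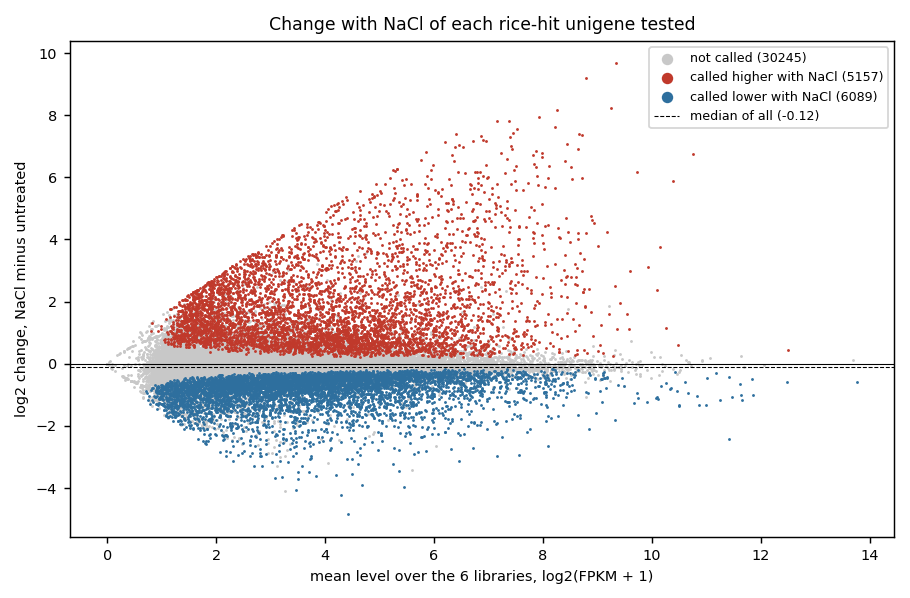
Log2 change, NaCl minus untreated, of each rice-hit unigene tested against its mean level as log2(FPKM + 1); each point is 1 unigene, coloured where called higher (5157) or lower (6089). Rises reach beyond 9 on the log2 scale, while 3 falls reach 4.

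Called unigenes took up very different shares of the RNA in the 2 groups. Unigenes called higher held 31.3%, 28.1% and 29.2% of rice-hit FPKM in the NaCl libraries, against 9.01%, 9.43% and 8.81% in the untreated libraries. Those called lower held 17.2%, 17.2% and 17.1% with NaCl, against 32.2%, 31.8% and 31.3% untreated. The 377 unigenes that rose by at least 4 on the log2 scale held 8.23%, 6.60% and 7.21% in the NaCl libraries and 0.202%, 0.223% and 0.149% in the untreated libraries. These unigenes were chosen on the same values, so the shares are a description and no test.

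**Figure D2:**
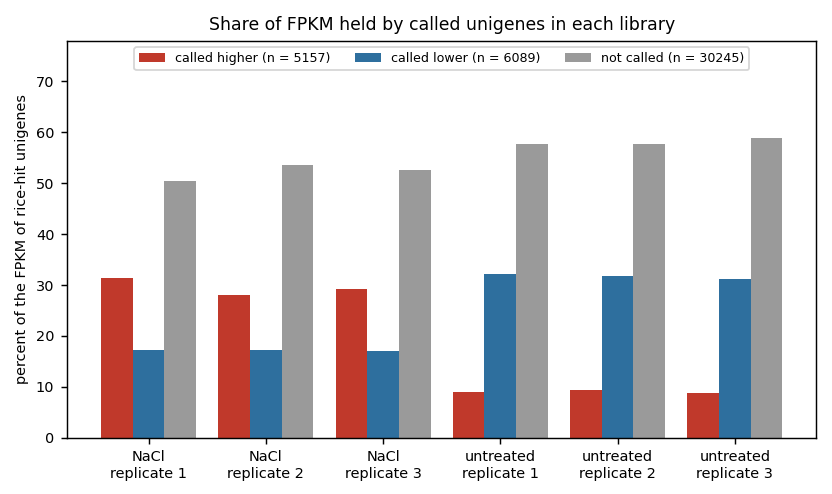
Percent of the FPKM of all rice-hit unigenes, tested or not, held in each of the 3 NaCl and 3 untreated libraries by tested unigenes called higher (5157), called lower (6089) and not called (30245), as bars. Unigenes called higher sit at 28.1% to 31.3% in NaCl libraries and at 8.81% to 9.43% in untreated libraries.

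Transcription factors led the rises. ERF109, an ethylene response factor that acts in stress and redox responses in Arabidopsis, had 1619.7, 989 and 1258 FPKM in the NaCl libraries, against 0.22, 1.47 and 0.24 FPKM in the untreated libraries (log2 change 9.67 ± 1.46, adjusted p = 0.000921). TIFY 11e, a repressor of jasmonate responses of the JAZ type, had 1145, 1323 and 1160.3 FPKM in the NaCl libraries, against 2.99, 2.97 and 2.98 FPKM in the untreated libraries (log2 change 8.25 ± 1.61, adjusted p = 0.00429). The bHLH35 factor had 722, 589.6 and 523 FPKM in the NaCl libraries, against 1.07, 1.15 and 1.14 FPKM in the untreated libraries (log2 change 8.16 ± 0.83, adjusted p = 8.31e-05). All 3 were at or below 3 FPKM in untreated roots, and no NaCl library came near those levels.

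A like gap between the groups held for the other leading regulators. WRKY71, a repressor of gibberellin signalling in rice aleurone, had 874, 779.8 and 749 FPKM in the NaCl libraries, against 3.15, 3.54 and 4.74 FPKM in the untreated libraries (log2 change 7.39 ± 1.04, adjusted p = 0.0006). WRKY28 had 333, 354 and 332 FPKM in the NaCl libraries, against 2.21, 1.83 and 1.5 FPKM in the untreated libraries (log2 change 6.91 ± 0.66, adjusted p = 5.49e-05). ERF110 had 418, 219 and 349 FPKM in the NaCl libraries, against 0.54, 0.15 and 0.6 FPKM in the untreated libraries (log2 change 7.81 ± 1.30, adjusted p = 0.00168). Lack of overlap between the groups was a condition for the 12 largest rises. A zinc finger protein described by homology as ZFP36 had 388, 309 and 339.9 FPKM in the NaCl libraries, against 0.86, 1.25 and 0.9 FPKM in the untreated libraries (log2 change 7.43 ± 1.02, adjusted p = 0.000507), and ERF4 rose by 6.96 on the same scale. The only enzyme among the 12 largest rises was a phenylalanine ammonia-lyase (PAL2), the entry point of phenylpropanoid synthesis, at 359, 335 and 306 FPKM in the NaCl libraries, against 1.49, 0.63 and 1.32 FPKM in the untreated libraries (log2 change 7.30 ± 0.92, adjusted p = 0.000296).

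The largest gain in absolute level belonged to BHLH148, a jasmonate-linked factor studied for drought tolerance in rice, at 4629, 2184 and 3485 FPKM in the NaCl libraries, against 32.9, 25.6 and 30.4 FPKM in the untreated libraries (log2 change 6.75 ± 0.96, adjusted p = 0.000661). A MAP kinase kinase kinase 17-like unigene had 985, 658 and 841 FPKM in the NaCl libraries, against 14.4, 14.99 and 7.91 FPKM in the untreated libraries (log2 change 5.98 ± 1.09, adjusted p = 0.00288), and ERD15, an early dehydration-responsive protein, had 1892, 2012 and 1589.7 FPKM in the NaCl libraries, against 377, 401 and 284 FPKM in the untreated libraries (log2 change 2.38 ± 0.33, adjusted p = 0.000587). Log2 changes were 3.75 for the Ca2+-binding protein KIC, 6.18 for an ALP1-like protein, 3.13 for ERF9 and 2.99 for YLS9, a senescence-related protein. A proline-rich protein, DC2.15, was abundant in both groups at 6055, 7157 and 6720.5 FPKM in the NaCl libraries, against 4531, 5002 and 5078 FPKM in the untreated libraries, and its call (log2 change 0.45) was lost in the fit of the 6 libraries alone (adjusted p = 0.88) and without untreated replicate 1 (adjusted p = 0.0667).

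The DREB1 (CBF) family, activators that bind the dehydration-responsive element and are best known from cold, had rises in nearly every unigene. Of 16 unigenes described as DREB1 members, 15 were called higher, and the exception was DREB1I, at 2.59, 3.59 and 0 FPKM in the NaCl libraries, against 0, 2.77 and 0.92 FPKM in the untreated libraries. DREB1C had 295, 114 and 211 FPKM in the NaCl libraries, against 0, 0.54 and 0.53 FPKM in the untreated libraries (log2 change 7.18 ± 0.88, adjusted p = 0.000253). DREB1A was already expressed in untreated roots and had 1177, 750.4 and 939 FPKM in the NaCl libraries, against 74.1, 95.6 and 43.5 FPKM in the untreated libraries (log2 change 3.78 ± 0.88, adjusted p = 0.0112). DREB1H had 1047, 576 and 734 FPKM in the NaCl libraries, against 1.52, 17 and 4.65 FPKM in the untreated libraries (log2 change 6.91 ± 1.55, adjusted p = 0.00913), with the untreated libraries spread more than 10-fold among themselves.

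DREB1B had the highest level of the family, 2558, 2848 and 2507 FPKM in the NaCl libraries, against 65.2, 57.2 and 21.6 FPKM in the untreated libraries, a log2 change of 5.89 with an adjusted p of 0.0487. That call was lost with a pseudocount of 0.1 (adjusted p = 0.124), with no filter on low values (adjusted p = 0.0868), with the replicate block (adjusted p = 0.0553) and without NaCl replicate 1, NaCl replicate 2, NaCl replicate 3, untreated replicate 1, untreated replicate 2 or untreated replicate 3 (adjusted p = 0.104 to 0.137). A second DREB1B unigene had 833, 631 and 699 FPKM in the NaCl libraries, against 16.7, 20.5 and 3.15 FPKM in the untreated libraries (log2 change 5.95 ± 1.46, adjusted p = 0.0142), and its call was lost without NaCl replicate 1 or untreated replicate 3 (adjusted p = 0.0503 to 0.0578). DREB1F had 22.03, 17.01 and 24.2 FPKM in the NaCl libraries and was listed at 0 in every untreated library. The more abundant DREB1G unigene had 147, 98.3 and 193 FPKM in the NaCl libraries and was likewise listed at 0 in every untreated library. The other DREB1G unigene had 78.9, 64.04 and 68.7 FPKM in the NaCl libraries, against 0.43, 0 and 0 FPKM in the untreated libraries. Another DREB1H unigene had 488, 458 and 436 FPKM in the NaCl libraries, against 19.2, 15.8 and 0 FPKM in the untreated libraries (log2 change 6.05 ± 1.55, adjusted p = 0.0176). Its call was lost without NaCl replicate 1, NaCl replicate 2, NaCl replicate 3 or untreated replicate 3 (adjusted p = 0.0501 to 0.0651). The family was chosen for description after its values had been seen.

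**Figure D3:**
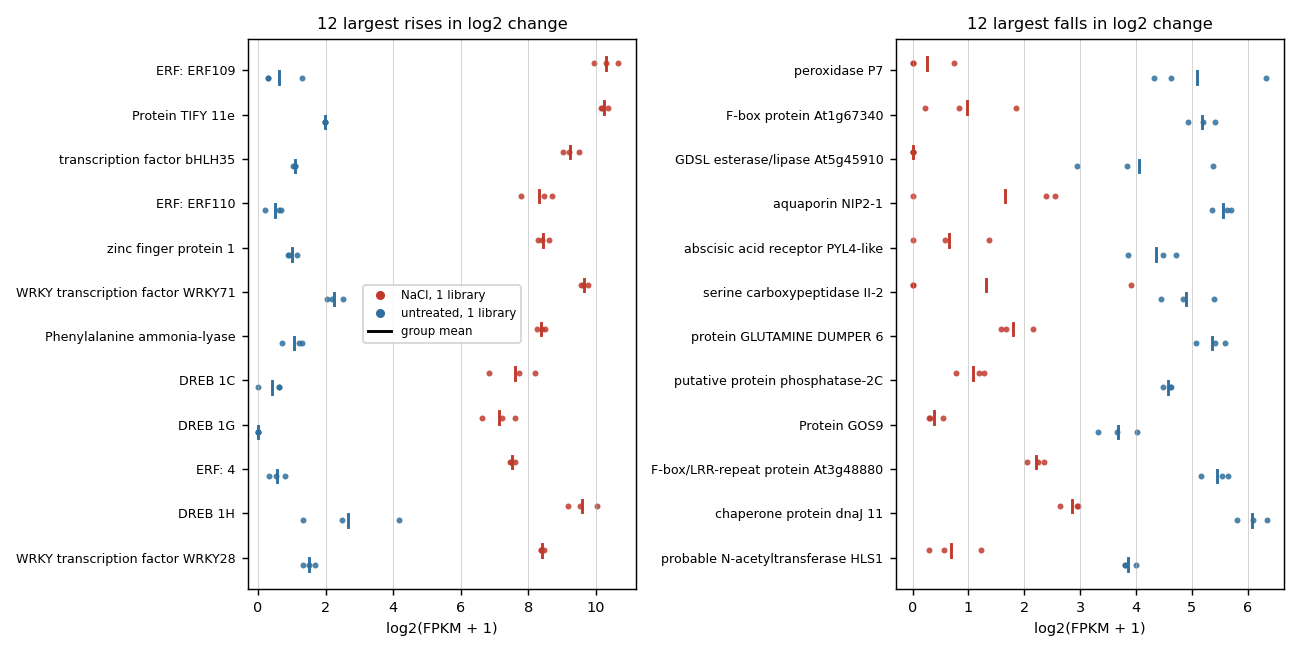
Level as log2(FPKM + 1) in each NaCl and untreated library (dots, with group means as lines) of the 12 largest rises and the 12 largest falls chosen by rule, each protein description entered once by its largest change. The rises have at least 98.3 FPKM in every NaCl library (DREB1G) and at most 17 FPKM in an untreated library (DREB1H). Lack of overlap between the groups was a condition of the choice.

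Some unigenes were listed at 0 throughout a group. In every untreated library, 126 unigenes that averaged 5 FPKM or more in NaCl libraries were listed at 0, and 79 of them were called higher. The reverse held for 50 unigenes, 5 of them called lower. A listed 0 in such a file is no proof of absence, since it can be a read assignment that failed, and no fold is given against it.

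Of the 79, 57 had an informative description, and some of them, chosen after their values were seen, are given here. Expansin-A18, a wall-loosening protein, had 22.8, 31.6 and 38.8 FPKM in the NaCl libraries. Peroxidase 10 had 36.5, 41.3 and 29.1 FPKM, peroxidase 38 22.3, 13.1 and 21.9 FPKM and the larger of 2 peroxidase 54 unigenes 18.2, 10.9 and 15.04 FPKM. Cinnamoyl-CoA reductase 1, the first committed step to lignin monomers, had 39.9, 27.9 and 45.9 FPKM in the highest of 4 unigenes. Germin-like protein 12-4 had 33.05, 35.5 and 29.4 FPKM and thaumatin-like protein 1 17.2, 14.7 and 17.9 FPKM.

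Regulators in this class included a FERONIA-type receptor kinase (40.2, 23.1 and 42.9 FPKM in the NaCl libraries), ERF020 (41.3, 27.1 and 32.6 FPKM), the Ca2+-dependent kinase CDPK21 (15.4, 14.6 and 15.99 FPKM) and a bHLH35 unigene (179, 149 and 173 FPKM). All were listed at 0 in the 3 untreated libraries. Among the 4 described unigenes listed at 0 in every NaCl library, the TGA-type bZIP factor TGAL3 had 7.84, 1.97 and 5.93 FPKM in untreated roots and carboxylesterase 15 had 8.96, 8.9 and 5.97 FPKM. The sets listed at 0 were formed after their values had been seen.

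Transcription factors were less frequent among the largest falls than among the largest rises. Peroxidase P7 had 0.68, 0 and 0 FPKM in the NaCl libraries, against 78.99, 23.6 and 18.9 FPKM in the untreated libraries (log2 change -4.84 ± 1.10, adjusted p = 0.00963). An F-box protein described as At1g67340 had 0.77, 2.6 and 0.17 FPKM in the NaCl libraries, against 41.8, 35.9 and 29.6 FPKM in the untreated libraries (log2 change -4.22 ± 0.34, adjusted p = 2.07e-05). A PYL4-like ABA receptor had 0, 0.49 and 1.59 FPKM in the NaCl libraries, against 21.4, 25.1 and 13.5 FPKM in the untreated libraries (log2 change -3.70 ± 0.50, adjusted p = 0.000469). For these 3, lack of overlap between the groups was a condition of the choice, and the untreated levels of peroxidase P7 were uneven.

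GLUTAMINE DUMPER 6, of a family that promotes amino acid export in Arabidopsis, had 3.45, 2.18 and 1.98 FPKM in the NaCl libraries, against 47.1, 32.6 and 41.9 FPKM in the untreated libraries (log2 change -3.56 ± 0.26, adjusted p = 1.15e-05). The chaperone dnaJ 11 had 6.66, 5.22 and 6.81 FPKM in the NaCl libraries, against 80.02, 55.2 and 67.3 FPKM in the untreated libraries (log2 change -3.24 ± 0.25, adjusted p = 1.52e-05). HLS1, named after an Arabidopsis regulator of the apical hook, had a log2 change of -3.17, and an F-box/LRR protein had -3.24. Among called unigenes averaging 10 FPKM or more in a group, 7 of the 100 largest falls were members of the transcription factor lists, against 36 of the 100 largest rises. Without those conditions, 3.03% of all rice-hit unigenes tested were members. Over those lists, 324 of 1257 unigenes were called higher and 240 lower, where 12.4% of all rice-hit unigenes were called higher and 14.7% lower.

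NIP2-1 (Lsi1), the aquaporin that takes silicon into rice roots, was lower in 4 of its 5 unigenes. The most abundant had 1228, 1025 and 1091 FPKM in the NaCl libraries, against 1994, 2265 and 2139.9 FPKM in the untreated libraries (log2 change -0.94 ± 0.09, adjusted p = 5.43e-05), a call that was lost in the fit of the 6 libraries alone (adjusted p = 0.0663). A less abundant unigene had 4.23, 0 and 4.88 FPKM in the NaCl libraries, against 50.8, 48.6 and 39.9 FPKM in the untreated libraries (log2 change -3.91 ± 0.54, adjusted p = 0.000522). Lsi1 is also a marker of the outer and inner barrier layers of the root.

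In absolute level, metallothionein 4B lost most among the firm calls, at 1102, 627 and 771 FPKM in the NaCl libraries, against 2813, 5934 and 5087 FPKM in the untreated libraries (log2 change -2.44 ± 0.28, adjusted p = 0.000189). Metallothioneins are small cysteine-rich proteins that bind metals. The Myb factor MYBAS2 had 1135, 1171 and 1135 FPKM in the NaCl libraries, against 2826, 2789 and 3095 FPKM in the untreated libraries (log2 change -1.34 ± 0.11, adjusted p = 1.98e-05), and MYBAS1 fell with it at -1.33. The glycine-rich RNA-binding protein GRP1 had 13129.9, 8922 and 11729 FPKM in the NaCl libraries, against 16742, 15702 and 17224 FPKM in the untreated libraries, and its call (log2 change -0.57) was lost with a pseudocount of 0.1 (adjusted p = 0.0779), in the fit of the 6 libraries alone (adjusted p = 0.989), with median-ratio scaling (adjusted p = 0.107) and without NaCl replicate 2, untreated replicate 1, untreated replicate 2 or untreated replicate 3 (adjusted p = 0.065 to 0.112). Metallothionein 1A had 2623, 2445 and 2302 FPKM in the NaCl libraries, against 3439, 4461 and 3619 FPKM in the untreated libraries and PR1, a pathogenesis-related protein, 2834, 3062 and 3239.6 FPKM in the NaCl libraries, against 4007, 4490.0 and 4433 FPKM in the untreated libraries. Their log2 changes were -0.64 and -0.50. The metallothionein 1A call was lost in the fit of the 6 libraries alone (adjusted p = 0.5) and with quantile normalization (adjusted p = 0.873), and the PR1 call was lost in the fit of the 6 libraries alone (adjusted p = 0.687) and with quantile normalization (adjusted p = 0.831).

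Most ABA receptors fell, while protein phosphatases 2C of any clade moved both ways. ABA binds PYL/RCAR receptors, which then inhibit clade A protein phosphatases 2C (PP2C) and free SnRK2 kinases, called SAPK in rice. Among receptors, 0 of 11 unigenes tested were called higher and 7 lower, with a median log2 change of -0.52. The most abundant, described as ABA receptor 6 and related to PYL4, had 277, 216 and 258 FPKM in the NaCl libraries, against 789, 719 and 749 FPKM in the untreated libraries (log2 change -1.59 ± 0.11, adjusted p = 7.76e-06). No untreated value came near the NaCl values.

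Among the 190 PP2C unigenes tested, 53 were called higher and 31 lower (27.9% and 16.3%, against 12.4% and 14.7% of all rice-hit unigenes tested). The list was not limited to clade A, so these counts do not show how the phosphatases of ABA signalling moved. PP2C77 had 136, 114 and 109 FPKM in the NaCl libraries, against 0, 3.39 and 0.67 FPKM in the untreated libraries (log2 change 5.95 ± 0.63, adjusted p = 0.000102). PP2C32 had 265, 168 and 221 FPKM in the NaCl libraries, against 19.6, 20.4 and 20.6 FPKM in the untreated libraries (log2 change 3.35 ± 0.62, adjusted p = 0.00324). PP2C12 moved the other way, with 47.6, 36.4 and 45.5 FPKM in the NaCl libraries, against 297, 342 and 363 FPKM in the untreated libraries (log2 change -2.93 ± 0.15, adjusted p = 2.35e-06). The 3 phosphatases showed no overlap between groups.

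SnRK2 kinases were divided, as 5 of 22 unigenes tested were called higher and 5 lower (5 higher and 3 lower under median-ratio scaling, 5 higher and 8 lower under quantile normalization and 5 higher and 8 lower under equal rice totals per library). SAPK2 had 68.4, 60.6 and 58.2 FPKM in the NaCl libraries, against 32.6, 35.4 and 29.99 FPKM in the untreated libraries (log2 change 0.91 ± 0.09, adjusted p = 8.31e-05). A second SAPK2 unigene rose by 2.89, and SAPK9 had 74.99, 86.7 and 79.3 FPKM in the NaCl libraries, against 162, 131 and 152 FPKM in the untreated libraries (log2 change -0.88 ± 0.12, adjusted p = 0.000555). Both directions were seen within the same small family.

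Genes of ABA synthesis and breakdown were higher on both sides of the balance, as 11 of 21 unigenes tested were called higher and 1 lower. NCED4, a 9-cis-epoxycarotenoid dioxygenase that makes the ABA precursor, had 27.9, 17.3 and 24.7 FPKM in the NaCl libraries, against 0, 0.15 and 0 FPKM in the untreated libraries (log2 change 4.51 ± 0.34, adjusted p = 1.48e-05). ABA 8'-hydroxylase 1, which starts ABA breakdown, had 405, 292 and 326 FPKM in the NaCl libraries, against 23.9, 35.4 and 27.6 FPKM in the untreated libraries (log2 change 3.52 ± 0.34, adjusted p = 5.83e-05). A minor 8'-hydroxylase unigene was the exception, with a log2 change of -0.90.

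**Figure D4:**
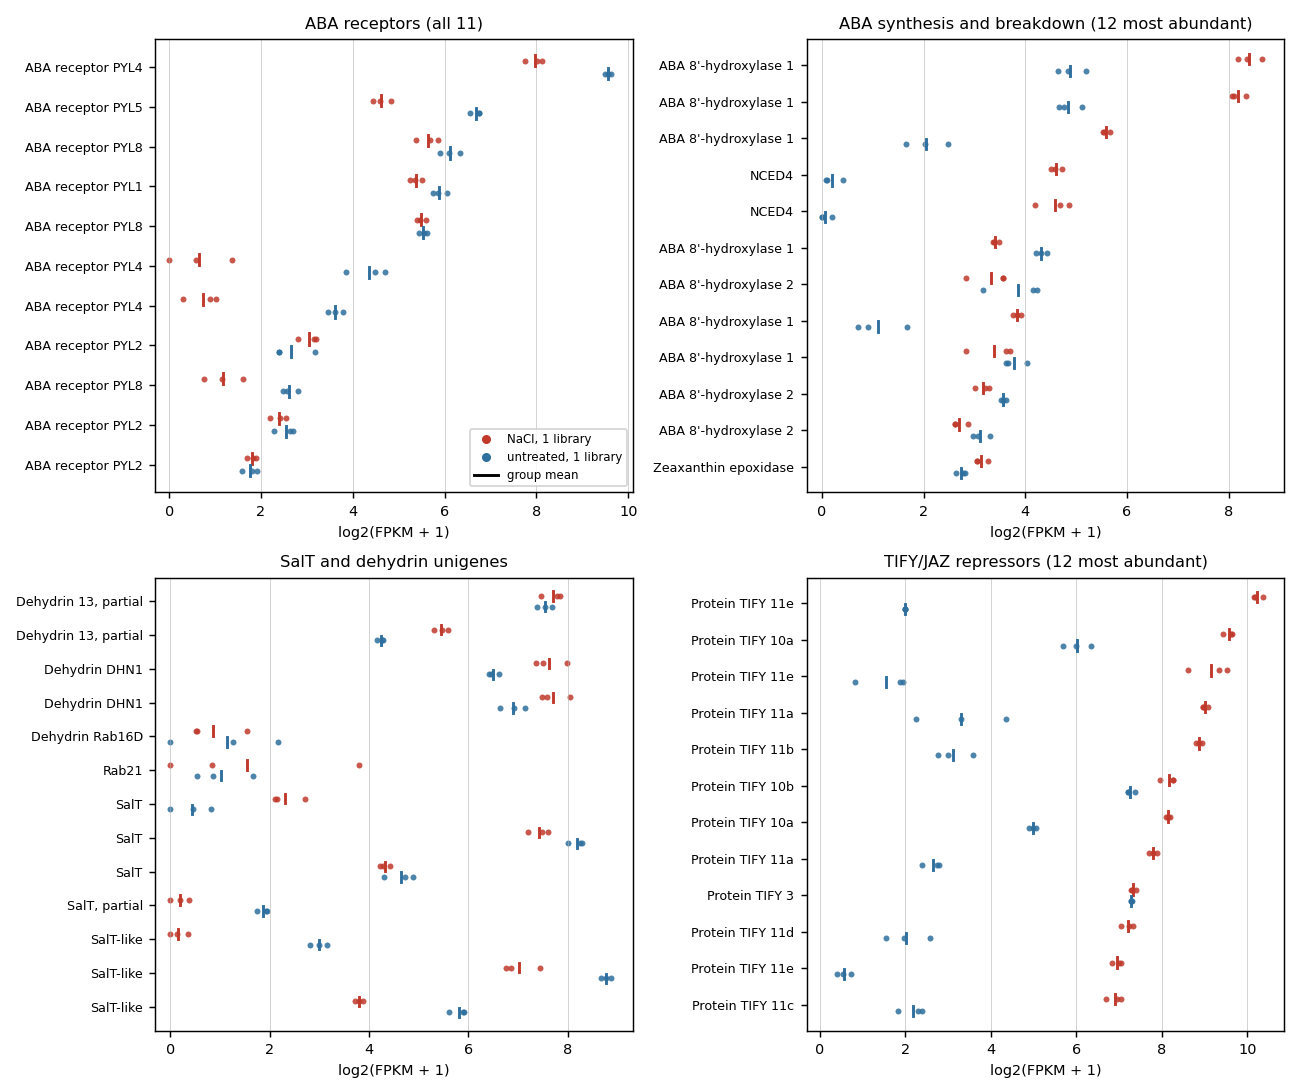
Level as log2(FPKM + 1) in each NaCl and untreated library (dots, with group means as lines) for ABA receptors, genes of ABA synthesis and breakdown, salt marker unigenes and TIFY/JAZ repressors, labelled by their nearest described protein. NaCl values lie below untreated values for 7 called receptors and above them for most TIFY unigenes.

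SalT, a mannose-binding lectin first described as induced by salt, was represented by 7 unigenes, of which 5 were called lower and 1 higher. The most abundant SalT unigene had 172, 106 and 115 FPKM in the NaCl libraries, against 406, 433 and 467 FPKM in the untreated libraries (log2 change -1.75 ± 0.21, adjusted p = 0.000252). Another abundant SalT unigene had 145, 179 and 193 FPKM in the NaCl libraries, against 257, 303 and 312 FPKM in the untreated libraries (log2 change -0.76 ± 0.14, adjusted p = 0.00301). The SalT unigene called higher was low in both groups, with 3.42, 5.53 and 3.28 FPKM in the NaCl libraries, against 0, 0.77 and 0.38 FPKM in the untreated libraries (log2 change 1.89 ± 0.31, adjusted p = 0.00155).

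Dehydrins and other late embryogenesis abundant (LEA) proteins, which protect cells during drying, rose in part. Over this list 7 of 17 unigenes tested were called higher and 1 lower. Dehydrin DHN1 had 252, 164 and 180.1 FPKM in the NaCl libraries, against 96.98, 83.9 and 86.4 FPKM in the untreated libraries (log2 change 1.12 ± 0.24, adjusted p = 0.00726). A second DHN1 unigene had 262, 176 and 191 FPKM in the NaCl libraries, against 141, 97.8 and 121 FPKM in the untreated libraries, with an adjusted p of 0.0541. A LEA protein related to SAG21 had 174, 106 and 155 FPKM in the NaCl libraries, against 11.6, 16.1 and 18.03 FPKM in the untreated libraries (log2 change 3.16 ± 0.31, adjusted p = 5.94e-05), the highest rise of the list. Rab21 (log2 change 0.53) and Rab16D (-0.28) were at a few FPKM or less and were not called.

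Most TIFY/JAZ repressors of jasmonate signalling rose, while genes of jasmonate synthesis moved both ways. Jasmonate is made from linolenic acid by lipoxygenase (LOX), allene oxide synthase, allene oxide cyclase and OPDA reductase, and TIFY/JAZ proteins repress its targets. Of the TIFY/JAZ repressors, 20 of 24 unigenes tested were called higher and 1 lower, with a median of 3.31 on the log2 scale. TIFY 10a, expressed without salt too, had 798, 693 and 785 FPKM in the NaCl libraries, against 62.99, 80.1 and 50.7 FPKM in the untreated libraries (log2 change 3.56 ± 0.28, adjusted p = 1.82e-05), and TIFY 11b had 493, 471 and 449 FPKM in the NaCl libraries, against 7.05, 10.9 and 5.76 FPKM in the untreated libraries (log2 change 5.77 ± 0.84, adjusted p = 0.000751). The more abundant TIFY 3 unigene had 155, 169 and 157 FPKM in the NaCl libraries, against 156, 155 and 156 FPKM in the untreated libraries, and was not called. The single member called lower was TIFY 6a at 29.3, 28.1 and 26.3 FPKM in the NaCl libraries, against 31.6, 37.6 and 36.4 FPKM in the untreated libraries, and that call was lost in the fit of the 6 libraries alone (adjusted p = 0.0565), with median-ratio scaling (adjusted p = 0.188) and without NaCl replicate 3 or untreated replicate 3 (adjusted p = 0.0505 to 0.0583).

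In synthesis, 20 of 54 unigenes tested were called higher and 11 lower. LOX5 had 381, 308 and 317 FPKM in the NaCl libraries, against 6.15, 3.69 and 5.81 FPKM in the untreated libraries (log2 change 5.78 ± 0.41, adjusted p = 1.06e-05), while LOX1 had 10.4, 13.02 and 14.01 FPKM in the NaCl libraries, against 29.1, 34.97 and 36.9 FPKM in the untreated libraries (log2 change -1.37 ± 0.21, adjusted p = 0.00116). The P450 enzyme CYP94C1, which oxidises and so inactivates the active jasmonate conjugate, had 553, 455 and 486 FPKM in the NaCl libraries, against 3.75, 4.72 and 3.58 FPKM in the untreated libraries (log2 change 6.64 ± 0.48, adjusted p = 1.1e-05). Genes of synthesis, of breakdown and of repression were all among those called higher.

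Ethylene genes were mixed. In synthesis, 11 of 41 unigenes tested were called higher and 12 lower, an order that turned under median-ratio scaling (14 higher, 7 lower) and quantile normalization (11 higher, 9 lower). An ACC synthase, the rate-limiting enzyme, had 103, 84.4 and 85.1 FPKM in the NaCl libraries, against 9.15, 7.52 and 6.66 FPKM in the untreated libraries (log2 change 3.39 ± 0.47, adjusted p = 0.000545). The most abundant ACC oxidase called higher had 216, 138 and 190.4 FPKM in the NaCl libraries, against 64.3, 68.2 and 72.7 FPKM in the untreated libraries (log2 change 1.37 ± 0.23, adjusted p = 0.00166), and another ACC oxidase unigene had a log2 change of -2.19. EBF1, an F-box protein that degrades the ethylene factor EIN3, rose by 1.03.

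Auxin response genes were called at shares near those of all rice-hit unigenes, while cytokinin genes had more falls than rises. Of auxin response genes, 27 of 199 unigenes tested were called higher and 20 lower, an order that turned under equal rice totals per library (20 higher, 33 lower). These were 13.6% and 10.05%, against 12.4% and 14.7% of all rice-hit unigenes tested. Of auxin transport and synthesis genes, 2 of 49 were called higher and 11 lower, an order that turned under median-ratio scaling (5 higher, 4 lower). SAUR41 had 72.8, 69.7 and 78 FPKM in the NaCl libraries, against 324, 344 and 357 FPKM in the untreated libraries (log2 change -2.20 ± 0.14, adjusted p = 5e-06), while SAUR71 had 122, 48.04 and 92.7 FPKM in the NaCl libraries, against 0.58, 0.09 and 0.37 FPKM in the untreated libraries (log2 change 5.96 ± 0.85, adjusted p = 0.000672). SAUR proteins are small early auxin-response proteins linked to cell expansion. For cytokinin, 9 of 83 unigenes tested were called higher and 37 lower, with a median of -0.42. CKX11, which degrades cytokinin, had 1.25, 2.15 and 2.86 FPKM in the NaCl libraries, against 16.3, 19.9 and 14.7 FPKM in the untreated libraries (log2 change -2.57 ± 0.22, adjusted p = 2.9e-05), and the response regulator ORR2 had 67.2, 63.1 and 59.9 FPKM in the NaCl libraries, against 116, 136 and 129 FPKM in the untreated libraries (log2 change -0.99 ± 0.08, adjusted p = 2.28e-05).

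For gibberellin, 9 of 37 unigenes tested were called higher and 8 lower, an order that turned under equal rice totals per library (8 higher, 10 lower). GA 3-beta-hydroxylase, the step to active gibberellin, was lower in 2 unigenes, at 26.6, 28.2 and 28.7 FPKM in the NaCl libraries, against 68.2, 58.3 and 74.2 FPKM in the untreated libraries for the first (log2 change -1.23 ± 0.12, adjusted p = 5.35e-05) and -1.11 on the log2 scale for the second. SLR1, the rice DELLA repressor of gibberellin growth, had 197, 164 and 195 FPKM in the NaCl libraries, against 118, 130.2 and 138 FPKM in the untreated libraries (log2 change 0.52 ± 0.10, adjusted p = 0.00349). Among brassinosteroid and strigolactone genes, 0 of 18 unigenes tested were called higher and 5 lower (0 higher and 3 lower under median-ratio scaling, 0 higher and 5 lower under quantile normalization and 0 higher and 6 lower under equal rice totals per library). D14, the strigolactone receptor, had 476, 395 and 451 FPKM in the NaCl libraries, against 629.8, 597 and 646 FPKM in the untreated libraries (log2 change -0.50 ± 0.08, adjusted p = 0.00146).

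Ca2+ sensors and Ca2+-regulated kinases had more rises than falls, though most were not called. For calmodulin-like and other Ca2+ sensors, 39 of 110 unigenes tested were called higher and 16 lower. CML10 had 821, 658 and 649 FPKM in the NaCl libraries, against 246, 253 and 181 FPKM in the untreated libraries (log2 change 1.65 ± 0.24, adjusted p = 0.000678), and CML41 had 53.7, 40.3 and 46.3 FPKM in the NaCl libraries, against 238, 166 and 208 FPKM in the untreated libraries (log2 change -2.10 ± 0.18, adjusted p = 2.79e-05). Of Ca2+-dependent and CBL-interacting kinases, 40 of 127 unigenes tested were called higher and 17 lower. CDPK13 had 253, 244 and 224 FPKM in the NaCl libraries, against 56.4, 68.6 and 56.3 FPKM in the untreated libraries (log2 change 1.98 ± 0.09, adjusted p = 1.63e-06), while CIPK4 had 12.5, 13.2 and 14.04 FPKM in the NaCl libraries, against 110.0, 92.3 and 96.5 FPKM in the untreated libraries (log2 change -2.82 ± 0.20, adjusted p = 1.1e-05).

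In MAP kinase cascades 43 of 111 unigenes tested were called higher and 1 lower, against 12.4% higher and 14.7% lower over all rice-hit unigenes tested. Receptor-like kinases had more rises than falls, as 257 of 1244 unigenes tested were called higher and 163 lower. Their shares were 20.7% and 13.1%, so only the share called higher was above that of all rice-hit unigenes tested. Of the NADPH oxidases (RBOH), which make apoplastic superoxide, 11 of 24 unigenes tested were called higher and 0 lower. An RBOHB-like unigene had 158, 128 and 144 FPKM in the NaCl libraries, against 75.4, 69.8 and 66.8 FPKM in the untreated libraries (log2 change 1.01 ± 0.10, adjusted p = 8.05e-05), with every NaCl value above every untreated value.

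Transcription factor families differed in their balance. Among AP2/ERF and DREB factors, 75 of 192 unigenes tested were called higher and 37 lower. Among WRKY factors, 81 of 154 unigenes tested were called higher and 14 lower, and their median was 0.99. Among NAC factors, 42 of 156 unigenes tested were called higher and 27 lower. The leading NAC unigene, related to NAC2 and NAC67, had 1298, 881 and 1121 FPKM in the NaCl libraries, against 60.9, 59.8 and 50.5 FPKM in the untreated libraries (log2 change 4.23 ± 0.72, adjusted p = 0.00191). RAP2-13, an ERF, went down, with 164, 176 and 181 FPKM in the NaCl libraries, against 766, 756 and 722 FPKM in the untreated libraries (log2 change -2.10 ± 0.08, adjusted p = 6.58e-07).

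MYB, bHLH and bZIP factors were split. Of MYB factors 42 of 209 unigenes tested were called higher and 50 lower, an order that turned under median-ratio scaling (45 higher, 42 lower) and quantile normalization (45 higher, 44 lower). A unigene described as MYB30 had 583, 293 and 462 FPKM in the NaCl libraries, against 3.24, 2.78 and 3.14 FPKM in the untreated libraries (log2 change 6.73 ± 1.14, adjusted p = 0.00186). Of bHLH factors 31 of 159 unigenes tested were called higher and 31 lower. Of bZIP factors 9 of 50 unigenes tested were called higher and 10 lower, an order that turned under median-ratio scaling (9 higher, 8 lower), and the member with the largest rise was described only as a putative leucine zipper protein.

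Homeobox and HD-ZIP factors had more falls than rises, as 7 of 125 unigenes tested were called higher and 33 lower. HOX19 had 2.04, 2.55 and 1.4 FPKM in the NaCl libraries, against 28.6, 23.4 and 15.7 FPKM in the untreated libraries (log2 change -2.96 ± 0.21, adjusted p = 1.04e-05). Heat stress factors were mixed, as 9 of 51 unigenes tested were called higher and 6 lower. HSFB1 had 66.04, 40.2 and 47.9 FPKM in the NaCl libraries, against 12.4, 10.5 and 8.41 FPKM in the untreated libraries (log2 change 2.18 ± 0.19, adjusted p = 3.53e-05). Of zinc-finger stress proteins, 14 of 45 unigenes tested were called higher and 12 lower, and a ZAT12-type unigene had 628, 524 and 488 FPKM in the NaCl libraries, against 9.2, 11.3 and 1.29 FPKM in the untreated libraries (log2 change 6.37 ± 1.05, adjusted p = 0.00164). Of GRAS, LBD and TCP factors, 14 of 116 unigenes tested were called higher and 20 lower, an order that turned under median-ratio scaling (17 higher, 13 lower) and quantile normalization (14 higher, 11 lower). As deposited, 12.1% were higher and 17.2% lower, against 12.4% and 14.7% of all rice-hit unigenes tested. LBD38, a repressor of nitrogen-responsive genes in Arabidopsis, had 208, 148 and 185 FPKM in the NaCl libraries, against 68, 71.2 and 62.04 FPKM in the untreated libraries (log2 change 1.40 ± 0.29, adjusted p = 0.0062).

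Chaperones had few rises. Of small heat shock proteins 0 of 22 unigenes tested were called higher and 4 lower. The 18.8 kDa class V protein had 92.8, 73.1 and 84.2 FPKM in the NaCl libraries, against 167, 129.7 and 156 FPKM in the untreated libraries (log2 change -0.85 ± 0.12, adjusted p = 0.000728). For the larger chaperones, 2 of 71 unigenes tested were called higher and 5 lower, an order that turned under median-ratio scaling (3 higher, 2 lower) and held under equal rice totals per library (2 higher, 9 lower). As deposited, 2.82% were higher and 7.04% lower, both below the 12.4% and 14.7% of all rice-hit unigenes tested.

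Osmolyte genes showed rises on both the making and the breaking side. Of trehalose and raffinose synthesis genes, 14 of 62 unigenes tested were called higher and 9 lower, an order that turned under equal rice totals per library (12 higher, 14 lower). Trehalose-phosphate phosphatase 7 (TPP7), which releases trehalose, had 348, 206 and 247 FPKM in the NaCl libraries, against 35.7, 29.8 and 35.1 FPKM in the untreated libraries (log2 change 2.93 ± 0.28, adjusted p = 5.59e-05). TPP1 had 203, 179 and 149.5 FPKM in the NaCl libraries, against 5.22, 6.32 and 5.91 FPKM in the untreated libraries (log2 change 4.70 ± 0.27, adjusted p = 3.96e-06). Of proline and glycine betaine genes, 7 of 23 unigenes tested were called higher and 1 lower. Proline dehydrogenase, which degrades proline, had 84.9, 69.7 and 71.1 FPKM in the NaCl libraries, against 34.04, 42.8 and 39.1 FPKM in the untreated libraries (log2 change 0.94 ± 0.16, adjusted p = 0.00206). The most abundant unigene of P5CS1, which makes proline, had a log2 change of 0.11 and was not called, while P5CS2 had 6.53, 7.64 and 7.22 FPKM in the NaCl libraries, against 2.11, 2.68 and 3.37 FPKM in the untreated libraries (log2 change 1.14 ± 0.15, adjusted p = 0.000486).

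Redox enzymes differed by class. Glutathione S-transferases, which conjugate toxic products, had more rises than falls, as 37 of 116 unigenes tested were called higher and 5 lower. GSTU6 had 166, 114 and 131 FPKM in the NaCl libraries, against 24.1, 23.4 and 24.9 FPKM in the untreated libraries (log2 change 2.44 ± 0.26, adjusted p = 0.000115). Of superoxide, ascorbate and glutathione enzymes, 10 of 56 unigenes tested were called higher and 8 lower, an order that turned under equal rice totals per library (7 higher, 8 lower). Catalase B had 239, 255 and 225 FPKM in the NaCl libraries, against 329, 353 and 333 FPKM in the untreated libraries (log2 change -0.50 ± 0.08, adjusted p = 0.00104), and an iron superoxide dismutase fell to 0.27, 2.69 and 2.56 FPKM in the NaCl libraries, against 9.51, 11.4 and 7.76 FPKM in the untreated libraries (log2 change -2.03 ± 0.37, adjusted p = 0.00264). Of thioredoxins and glutaredoxins, 10 of 114 unigenes tested were called higher and 20 lower, an order that turned under median-ratio scaling (12 higher, 11 lower), and glutaredoxin GRXS5 had 302, 306 and 288 FPKM in the NaCl libraries, against 58.2, 72.9 and 54.7 FPKM in the untreated libraries (log2 change 2.26 ± 0.36, adjusted p = 0.00132).

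Metallothioneins had more falls than rises, as 1 of 22 unigenes tested were called higher and 13 lower, with a median of -1.02. They share sequence, so these unigenes may share reads. Class III peroxidases, which act on wall phenolics, had more rises than falls, as 75 of 308 unigenes tested were called higher and 43 lower. Their shares were 24.4% and 13.96%, against 12.4% and 14.7% of all rice-hit unigenes tested. A second unigene described as peroxidase P7 had 64.3, 50.4 and 57.8 FPKM in the NaCl libraries, against 0.35, 0.38 and 0.38 FPKM in the untreated libraries (log2 change 5.41 ± 0.81, adjusted p = 0.000924), against the fall of the first.

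Phenylpropanoid genes had more rises than falls. Over the list, 73 of 185 unigenes tested were called higher and 26 lower. The most abundant phenylalanine ammonia-lyase had 627, 663 and 556 FPKM in the NaCl libraries, against 176, 162 and 134 FPKM in the untreated libraries (log2 change 1.97 ± 0.11, adjusted p = 3.96e-06). Hydroxycinnamoyltransferases were among the members that fell, with 94.4, 67.5 and 80.1 FPKM in the NaCl libraries, against 119, 123 and 125 FPKM in the untreated libraries for the most abundant (log2 change -0.61 ± 0.11, adjusted p = 0.00238). Of flavonoid genes, 17 of 85 unigenes tested were called higher and 25 lower. Diterpenoid phytoalexin genes were mixed too, as 4 of 35 unigenes tested were called higher and 8 lower.

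P450 enzymes and glycosyltransferases, the large decorating families, were split. Of P450 enzymes 48 of 239 unigenes tested were called higher and 39 lower, an order that turned under equal rice totals per library (46 higher, 52 lower). Of UDP-glycosyltransferases 28 of 274 unigenes tested were called higher and 55 lower, an order that turned under median-ratio scaling (40 higher, 39 lower).

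Polyamine genes bear on the series, whose other treatment is spermidine. Of them, 14 of 52 unigenes tested were called higher and 18 lower, an order that turned under median-ratio scaling (16 higher, 12 lower). S-adenosylmethionine decarboxylase, which supplies the aminopropyl groups of spermidine and spermine, had 395, 333 and 362 FPKM in the NaCl libraries, against 98.9, 99.4 and 91.6 FPKM in the untreated libraries (log2 change 1.90 ± 0.27, adjusted p = 0.000725). Putrescine hydroxycinnamoyltransferase 3, which conjugates putrescine, had 119, 115 and 114 FPKM in the NaCl libraries, against 8.55, 13.2 and 12.3 FPKM in the untreated libraries (log2 change 3.26 ± 0.19, adjusted p = 4.01e-06). Polyamine oxidase 4, which back-converts spermine, had 209.9, 229.9 and 221 FPKM in the NaCl libraries, against 387, 330.4 and 372 FPKM in the untreated libraries (log2 change -0.72 ± 0.10, adjusted p = 0.000504).

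Wall-loosening proteins had more rises than falls. Of expansins 46 of 114 unigenes tested were called higher and 17 lower. Their shares were 40.4% and 14.9%, against 12.4% and 14.7% of all rice-hit unigenes tested. Expansin-B7 had 48.3, 43.8 and 51.02 FPKM in the NaCl libraries, against 216, 222 and 319.6 FPKM in the untreated libraries (log2 change -2.36 ± 0.15, adjusted p = 6.38e-06). Of xyloglucan endotransglucosylases (XTH), which cut and rejoin wall xyloglucan, 17 of 50 unigenes tested were called higher and 8 lower. An XTH2-type unigene had 239, 165 and 185 FPKM in the NaCl libraries, against 2, 1.83 and 4.33 FPKM in the untreated libraries (log2 change 5.77 ± 0.32, adjusted p = 3.26e-06), while XTH30 had a log2 change of -1.42.

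Cellulose and barrier genes had more rises than falls, though most were not called. Of cellulose synthases and COBRA proteins, 30 of 122 unigenes tested were called higher and 6 lower. Endoglucanase 7 had 347, 202 and 313 FPKM in the NaCl libraries, against 25.4, 21.8 and 24.5 FPKM in the untreated libraries (log2 change 3.50 ± 0.44, adjusted p = 0.000297), and COBRA-like protein 7 rose by 4.82. Of Casparian strip and suberin genes, 33 of 131 unigenes tested were called higher and 14 lower. The fatty acid elongase KCS11 had 238, 173 and 216 FPKM in the NaCl libraries, against 7.94, 12.2 and 10.4 FPKM in the untreated libraries (log2 change 4.24 ± 0.41, adjusted p = 5.53e-05), and CASP-like protein 1U3 had 186, 230.1 and 199 FPKM in the NaCl libraries, against 458, 431 and 359 FPKM in the untreated libraries (log2 change -1.02 ± 0.12, adjusted p = 0.000215). Of pectin enzymes 12 of 122 unigenes tested were called higher and 18 lower, an order that turned under median-ratio scaling (17 higher, 10 lower) and quantile normalization (16 higher, 14 lower). As deposited, 9.84% were higher and 14.8% lower, against 12.4% and 14.7% of all rice-hit unigenes tested.

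Extracellular defence proteins gave rises and falls, and most were not called. Of dirigent proteins and germins 34 of 90 unigenes tested were called higher and 11 lower. Germin-like protein 8-10 had 389, 258 and 247 FPKM in the NaCl libraries, against 38.7, 45.5 and 18.3 FPKM in the untreated libraries (log2 change 3.15 ± 0.43, adjusted p = 0.000473), and dirigent protein 2 had 194, 197 and 207 FPKM in the NaCl libraries, against 440.1, 377 and 362 FPKM in the untreated libraries (log2 change -0.97 ± 0.08, adjusted p = 1.98e-05). Of chitinases and pathogenesis-related proteins 61 of 249 unigenes tested were called higher and 32 lower, and of protease inhibitors 13 of 48 unigenes tested were called higher and 7 lower. Lipid transfer proteins leaned to the low side, as 7 of 54 unigenes tested were called higher and 13 lower.

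Sodium transporters are the genes most often studied in rice salt tolerance. Of HKT, NHX and SOS1 genes, 0 of 17 unigenes tested were called higher and 4 lower (1 higher and 2 lower under median-ratio scaling, 1 higher and 4 lower under quantile normalization and 0 higher and 5 lower under equal rice totals per library), where 12.4% of all rice-hit unigenes were called higher and 14.7% lower. The HKT1;5-type transporter (HKT8), which removes Na+ from the xylem, had 14.96, 13.6 and 13.3 FPKM in the NaCl libraries, against 33.98, 18.6 and 23.4 FPKM in the untreated libraries (log2 change -0.78 ± 0.20, adjusted p = 0.017), and that call was lost in the fit of the 6 libraries alone (adjusted p = 0.0793) and without NaCl replicate 3 (adjusted p = 0.0558). The SOS1-type exchanger (NHX7), which exports Na+, had 66.95, 62.6 and 63.4 FPKM in the NaCl libraries, against 72.1, 70.7 and 72.8 FPKM in the untreated libraries, a small gap without overlap, and was not called (adjusted p = 0.112).

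Potassium and proton transport genes had calls in both directions. Of potassium transporters 11.1% were higher and 9.52% lower, and of proton pumps 16.9% and 9.23%. For aquaporins the shares were 5.2% and 15.6%, against 12.4% and 14.7% of all rice-hit unigenes tested. Of potassium transporters 7 of 63 unigenes tested were called higher and 6 lower, an order that turned under equal rice totals per library (7 higher, 12 lower). The inward K+ channel AKT1 had 142, 115 and 121 FPKM in the NaCl libraries, against 300.2, 288 and 267 FPKM in the untreated libraries (log2 change -1.18 ± 0.09, adjusted p = 1.48e-05), while the transporter HAK7 had 103, 87.7 and 76.8 FPKM in the NaCl libraries, against 57.1, 60.04 and 59 FPKM in the untreated libraries (log2 change 0.58 ± 0.10, adjusted p = 0.00179). Of proton pumps 11 of 65 unigenes tested were called higher and 6 lower, an order that turned under quantile normalization (9 higher, 10 lower). Of aquaporins 4 of 77 unigenes tested were called higher and 12 lower, an order that turned under median-ratio scaling (12 higher, 10 lower). TIP2-1, a vacuolar water channel, had 218, 346 and 249.8 FPKM in the NaCl libraries, against 126, 139 and 128 FPKM in the untreated libraries (log2 change 1.02 ± 0.15, adjusted p = 0.000672).

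Iron acquisition had the highest share called lower of the transport lists. Rice takes up iron as Fe2+ and, like other grasses, as Fe3+ bound to mugineic acids, which it makes from nicotianamine and imports through YSL transporters. Of the iron list, 3 of 96 unigenes tested were called higher and 48 lower, with a median of -0.63. The factor IRO2, a positive regulator of this pathway (described as bHLH100), had 168, 197 and 164 FPKM in the NaCl libraries, against 347, 389 and 319.9 FPKM in the untreated libraries (log2 change -0.99 ± 0.15, adjusted p = 0.000839). YSL15, which imports Fe3+ with deoxymugineic acid, had 16.7, 24.4 and 20.02 FPKM in the NaCl libraries, against 62.3, 69.8 and 63.6 FPKM in the untreated libraries (log2 change -1.65 ± 0.21, adjusted p = 0.000323). Nramp1 had 44.1, 64.6 and 47.5 FPKM in the NaCl libraries, against 151, 166 and 135 FPKM in the untreated libraries in its most abundant unigene (log2 change -1.53 ± 0.19, adjusted p = 0.00025).

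YSL2, a carrier of metal-nicotianamine, had 24.9, 24.1 and 25.3 FPKM in the NaCl libraries, against 60.5, 92.9 and 106 FPKM in the untreated libraries (log2 change -1.73 ± 0.22, adjusted p = 0.000357), and the vacuolar iron transporter homolog 5 had 30.4, 25.6 and 31.2 FPKM in the NaCl libraries, against 93.3, 72.7 and 87.7 FPKM in the untreated libraries (log2 change -1.51 ± 0.19, adjusted p = 0.000353). Nicotianamine synthase 1 was the most abundant member, with 1739, 1898 and 1686 FPKM in the NaCl libraries, against 2462, 4666 and 4478 FPKM in the untreated libraries and a log2 change of -1.07, and its call was lost in the fit of the 6 libraries alone (adjusted p = 0.244) and without NaCl replicate 1, NaCl replicate 3, untreated replicate 2 or untreated replicate 3 (adjusted p = 0.0527 to 0.0686). A member that rose was a deoxymugineic acid synthase unigene, at 8.65, 7.25 and 7.97 FPKM in the NaCl libraries, against 0.28, 0.47 and 0.61 FPKM in the untreated libraries (log2 change 2.63 ± 0.20, adjusted p = 1.64e-05), and the list held 3 rises in all. YSL15, Nramp1's most abundant unigene, YSL2 and the vacuolar transporter were named after their values had been seen.

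Zinc and heavy-metal genes gave both directions, as 24 of 135 unigenes tested were called higher and 40 lower. The zinc transporter ZIP9 had 223, 202 and 198 FPKM in the NaCl libraries, against 296, 372 and 272 FPKM in the untreated libraries (log2 change -0.58 ± 0.12, adjusted p = 0.0065). A metal-binding protein related to HIPP39 had 610.3, 599 and 572 FPKM in the NaCl libraries, against 38.4, 35.5 and 29.6 FPKM in the untreated libraries (log2 change 4.07 ± 0.48, adjusted p = 0.000201). HIPP proteins carry a heavy-metal-binding domain and an isoprenyl anchor.

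Nitrogen and phosphate transport had strong single members. Of nitrate, ammonium and peptide transporters 31 of 214 unigenes tested were called higher and 43 lower, an order that turned under median-ratio scaling (37 higher, 34 lower). NPF8.3 had 261, 186 and 208 FPKM in the NaCl libraries, against 13.4, 14.4 and 9.62 FPKM in the untreated libraries (log2 change 4.03 ± 0.47, adjusted p = 0.00019). Of nitrogen assimilation genes 6 of 37 unigenes tested were called higher and 14 lower, an order that turned under median-ratio scaling (8 higher, 6 lower). Nitrite reductase had 522, 476 and 495 FPKM in the NaCl libraries, against 699, 653 and 639 FPKM in the untreated libraries (log2 change -0.41 ± 0.08, adjusted p = 0.00541) in its main unigene, and that call was lost with median-ratio scaling (adjusted p = 0.0692). Of phosphate transporters and SPX proteins 9 of 78 unigenes tested were called higher and 18 lower, and PHT1-8 had 208, 202 and 202 FPKM in the NaCl libraries, against 47.1, 56.5 and 53.8 FPKM in the untreated libraries (log2 change 1.95 ± 0.10, adjusted p = 2.35e-06). Of sulfate genes 8 of 64 unigenes tested were called higher and 9 lower, an order that turned under median-ratio scaling (11 higher, 6 lower). As deposited, 12.5% were higher and 14.1% lower, near the 12.4% and 14.7% of all rice-hit unigenes tested.

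Sugar and ABC transporters had more rises than falls. For sugar transporters, 29 of 111 unigenes tested were called higher and 13 lower. A polyol transporter 5-type unigene had 271, 207 and 249 FPKM in the NaCl libraries, against 124, 127 and 136 FPKM in the untreated libraries (log2 change 0.90 ± 0.11, adjusted p = 0.000252), and the monosaccharide transporter MST1 had 119.5, 74.03 and 111 FPKM in the NaCl libraries, against 161, 201 and 208 FPKM in the untreated libraries (log2 change -0.92 ± 0.21, adjusted p = 0.0109). For ABC transporters, 35 of 212 unigenes tested were called higher and 13 lower. ABCG37 had 135, 108 and 118 FPKM in the NaCl libraries, against 40.9, 49 and 46.2 FPKM in the untreated libraries (log2 change 1.38 ± 0.11, adjusted p = 1.7e-05), and ABCG14, which carries cytokinin in Arabidopsis, had 48.3, 39.1 and 40.8 FPKM in the NaCl libraries, against 112, 85.1 and 109 FPKM in the untreated libraries (log2 change -1.23 ± 0.14, adjusted p = 0.000164).

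Central carbon metabolism had modest counts in both directions. Shares called higher and lower were 12.15% and 10.28% for glycolysis and 11.1% each for fermentation genes and hemoglobins. They were 9.26% and 12.96% for the TCA cycle and respiratory chain. All of these were near or below the 12.4% and 14.7% of all rice-hit unigenes tested. Sucrose and starch breakdown genes were above, at 22.4% and 19.4%. Of glycolysis genes 13 of 107 unigenes tested were called higher and 11 lower, an order that turned under quantile normalization (10 higher, 12 lower) and equal rice totals per library (8 higher, 15 lower) and held under median-ratio scaling (21 higher, 6 lower). Of fermentation genes and hemoglobins 4 of 36 unigenes tested were called higher and 4 lower (4 higher and 1 lower under median-ratio scaling, 5 higher and 6 lower under quantile normalization and 2 higher and 8 lower under equal rice totals per library), and alcohol dehydrogenase 2 had 47.8, 40.6 and 40.4 FPKM in the NaCl libraries, against 94.5, 68.7 and 75.5 FPKM in the untreated libraries (log2 change -0.87 ± 0.12, adjusted p = 0.000515). Of sucrose and starch breakdown genes 15 of 67 unigenes tested were called higher and 13 lower, an order that turned under equal rice totals per library (14 higher, 19 lower). Sucrose synthase 2 had 319.6, 343 and 307 FPKM in the NaCl libraries, against 465, 416 and 428 FPKM in the untreated libraries (log2 change -0.43 ± 0.08, adjusted p = 0.00233). Of the TCA cycle and respiratory chain 10 of 108 unigenes tested were called higher and 14 lower, an order that turned under median-ratio scaling (20 higher, 7 lower) and held under quantile normalization (8 higher, 29 lower) and equal rice totals per library (7 higher, 27 lower), and the alternative oxidase AOX1B had 15.6, 13.4 and 5.9 FPKM in the NaCl libraries, against 0.89, 0.65 and 0 FPKM in the untreated libraries (log2 change 3.01 ± 0.42, adjusted p = 0.000582).

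Protein turnover genes had large single changes. Of ubiquitin ligases 200 of 1111 unigenes tested were called higher and 247 lower, an order that turned under median-ratio scaling (218 higher, 167 lower) and quantile normalization (204 higher, 189 lower). A PUB16-type armadillo protein had 1140.5, 715 and 897 FPKM in the NaCl libraries, against 38.4, 37.3 and 31.2 FPKM in the untreated libraries (log2 change 4.63 ± 0.71, adjusted p = 0.001), while the F-box protein At2g44130 had 77.1, 68.5 and 75.8 FPKM in the NaCl libraries, against 488, 474 and 446 FPKM in the untreated libraries (log2 change -2.65 ± 0.13, adjusted p = 1.96e-06). Of proteasome subunits 0 of 98 unigenes tested were called higher and 6 lower, an order that turned under median-ratio scaling (2 higher, 1 lower) and held under quantile normalization (0 higher, 15 lower) and equal rice totals per library (0 higher, 17 lower). Their share lower as deposited was 6.12%, below the 14.7% of all rice-hit unigenes tested. Of autophagy proteins 0 of 44 unigenes tested were called higher and 9 lower (0 higher and 4 lower under median-ratio scaling, 0 higher and 6 lower under quantile normalization and 0 higher and 9 lower under equal rice totals per library), against 14.7% lower over all rice-hit unigenes. ATG8C had 135, 131 and 142 FPKM in the NaCl libraries, against 262, 261 and 242 FPKM in the untreated libraries (log2 change -0.90 ± 0.08, adjusted p = 3.33e-05).

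Histones had more falls than rises. Of core and linker histones, 0 of 32 unigenes tested were called higher and 15 lower (1 higher and 9 lower under median-ratio scaling, 0 higher and 15 lower under quantile normalization and 0 higher and 21 lower under equal rice totals per library), with a median of -0.47. Histone H1 had 84.3, 87.01 and 90.8 FPKM in the NaCl libraries, against 324, 281 and 279.8 FPKM in the untreated libraries (log2 change -1.74 ± 0.11, adjusted p = 4.85e-06). Histone H2B.1 had 99.8, 81.8 and 96.8 FPKM in the NaCl libraries, against 127, 134 and 164 FPKM in the untreated libraries (log2 change -0.60 ± 0.14, adjusted p = 0.00958). Of cyclins, CDKs and replication genes, 10 of 194 unigenes tested were called higher and 22 lower (11.3%, against 14.7% of all rice-hit unigenes), an order that turned under median-ratio scaling (13 higher, 9 lower). EL2, an inhibitor of cyclin-dependent kinases, had 319, 289 and 285 FPKM in the NaCl libraries, against 34.7, 39.8 and 22.1 FPKM in the untreated libraries (log2 change 3.21 ± 0.54, adjusted p = 0.00191).

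Of kinesins and tubulins 6 of 164 unigenes tested were called higher and 7 lower, an order that turned under median-ratio scaling (12 higher, 3 lower) and held under quantile normalization (7 higher, 11 lower) and equal rice totals per library (6 higher, 17 lower). As deposited, 3.66% were higher and 4.27% lower, both below the 12.4% and 14.7% of all rice-hit unigenes tested. Of cytosolic ribosomal proteins 8 of 320 unigenes tested were called higher and 23 lower, an order that turned under median-ratio scaling (11 higher, 10 lower) and held under quantile normalization (8 higher, 92 lower) and equal rice totals per library (7 higher, 63 lower). As deposited, these shares were 2.5% and 7.19%, also below those of all rice-hit unigenes. Translation factors had 322, 309 and 301 FPKM in the NaCl libraries, against 395, 357 and 394 FPKM in the untreated libraries in their most abundant member called lower, the initiation factor 5A2, and overall 0 of 117 unigenes tested were called higher and 9 lower (3 higher and 3 lower under median-ratio scaling, 0 higher and 19 lower under quantile normalization and 0 higher and 20 lower under equal rice totals per library). Their share lower was 7.69%, against 14.7% over all rice-hit unigenes. The initiation factor's call (log2 change -0.29) was lost with median-ratio scaling (adjusted p = 0.243) and without NaCl replicate 3, untreated replicate 1 or untreated replicate 3 (adjusted p = 0.0597 to 0.0653).

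**Figure D5:**
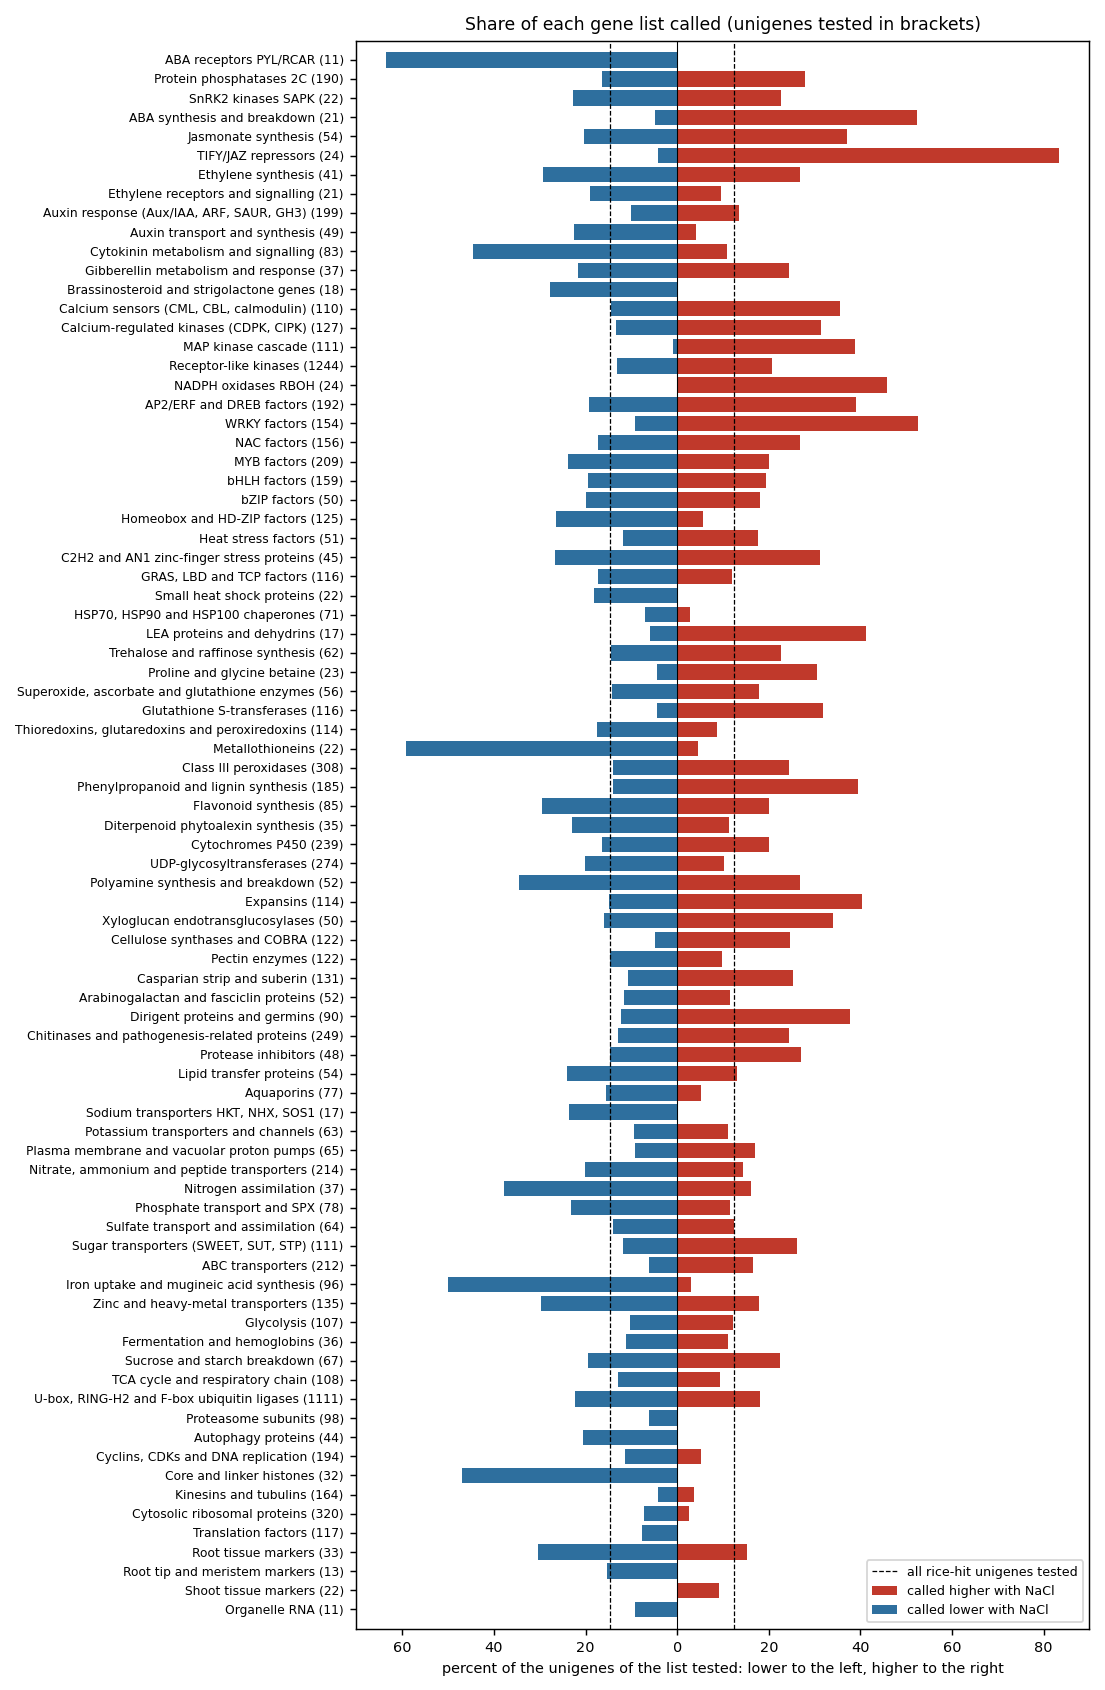
Percent of the unigenes tested in each gene list with at least 10 tested that were called higher (right) or lower (left) with NaCl, with the 12.4% and 14.7% of all rice-hit unigenes tested as lines. TIFY/JAZ repressors reach furthest on the high side and ABA receptors, metallothioneins and iron genes furthest on the low side.

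Classes of the deposited annotation, formed without word lists, were ranked by their share called. Of 1657 annotated classes with at least 20 rice-hit unigenes tested, the KEGG class of phenylalanine ammonia-lyase had the highest share called higher, 29 of 30 with 0 lower. The next 4 were other names for the same reaction or its product, with 34 of 39, 35 of 41, 34 of 40 and 22 of 26 unigenes higher. The KEGG class of JAZ proteins had 19 of 23 higher and 1 lower. The GO term for negative regulation of leaf senescence had 17 of 22 higher, and that for phenylalanine catabolism 34 of 45.

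At the low end, the GO term for iron-nicotianamine transport had 16 of 20 lower and 0 higher, and the response to iron ion had 19 of 26 lower. The class of oligopeptide transporters, which holds the YSL proteins, had 19 of 37 lower. A KEGG class named for the FAN1 nuclease had 16 of 26 lower, and FCS-type zinc fingers had 16 of 30 lower. The Fe2+/Zn2+ transporter class had 11 of 21 lower, iron ion homeostasis 29 of 57, and receptor kinase binding 11 of 22. An equal share, 10 of 20, was lower in the term for iron ion transmembrane transport. These classes share unigenes, so they are not separate observations.

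Called unigenes with the same protein hit were mostly called in the same direction. Of 1696 NR descriptions with at least 2 called unigenes, 1490 (87.9%) had all of them called in the same direction. Unigenes not called were left out of this count. Those of the same hit can be pieces of a single gene or share reads, so they are not separate observations.

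In the 6 libraries outside the comparison, values are given for a pair of the leading rises, as a description. ERF109 had 114, 0.92 and 2.36 FPKM with spermidine and NaCl and 27.8, 24.9 and 0.64 FPKM with spermidine alone. DREB1B had 807, 0 and 60.98 FPKM with spermidine and NaCl and 373, 403 and 44.2 FPKM with spermidine alone. The spread of such values among those libraries entered the standard errors given above.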

How the data were processed

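Roots of the 12 libraries were measured by poly-A RNA-seq. The authors deposited 1 table of FPKM per assembled unigene with its protein hits and annotation, and every sample column was mapped to a library (0 were not). The submitters' processing notes name CASAVA 1.8, Bowtie2 and RSEM, but the sources used here do not give each tool's role, the assembler or a genome build. FPKM divides by length and by library total, so large rises press the other unigenes down, and read depth is unknown, so no counting interval is given.

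The deposited FPKM values were used as log2(FPKM + 1), a scale that understates changes of low unigenes. A linear model with 4 group means and a variance trend was fitted over the 12 libraries (R 4.3.3, limma 3.58.1) to the 65836 unigenes averaging at least 1 FPKM, with two-sided tests and Benjamini-Hochberg adjustment. On simulated data for this comparison (65836 unigenes), the fit recovered 6 of 50 unigenes changed by 0.5 on the log2 scale, 25 of 50 changed by 1, 45 of 50 changed by 2 and 47 of 50 changed by 3. Far fewer unigenes were changed there than were called in the data, and the changed ones were rice-hit unigenes not low in untreated libraries. These recoveries therefore do not give the sensitivity of the real test. Replicate numbers did not pair libraries across groups.

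Gene lists were words matched in protein descriptions. Lists are described by counts, without a set test. Named unigenes were the 12 largest rises and falls in log2 change averaging 10 FPKM or more in a group, each description once and without overlap between groups, the 10 largest gains and losses in FPKM, the most abundant called members and largest changes of each list, and salt markers (SalT, dehydrins and others). The text gives some of them, and a few named by this rule are not reported here. Members and lists were chosen with earlier results of these data known, and 6 lists were corrected after their members were seen. Further members of lists of up to 40 unigenes and of the iron list, and the DREB1 family, were named after their values were seen. bZIP73 was looked for as a salt marker, but 0 unigenes had that description. Alternatives were another pseudocount, other filters, other scalings, the 6 libraries alone, rice-hit unigenes alone, a replicate block, sums per NR protein and each library left out. The files used here hold no sequences.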

Additional observations from a re-analysis of the deposited data

How the results depend on the processing

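The median stayed negative under every alternative run. Rises outnumbered falls with median-ratio scaling and, at 5194 higher and 4746 lower, with no filter on low values. Leaving out each of the 6 libraries gave 4352 to 4648 unigenes called higher, 4379 to 5599 called lower and a median log2 change of -0.136 to -0.0904. Median-ratio scaling lowered the count called lower to 3905 and brought the median to -0.0007, and summing FPKM per NR protein left 3414 called higher, from fewer features. Rises were 45.9% of calls as deposited, 61.7% with median-ratio scaling, 49.7% with quantile normalization, 36.2% with the rice totals set equal and 52.3% with no filter. The replicate block gave 5004 higher and 5521 lower. Same-numbered libraries had deviations that correlated at 0.008, 0.03 and 0.045, below the 0.1 set for pairing.

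Of the 314 unigenes named by rule that were called, 234 stayed called under every alternative and 80 lost the call under at least 1. The 6-library fit ended 56 of these calls, median-ratio scaling 30, no filter 28, quantile normalization 18, the equal rice total 10, the replicate block 10 and a pseudocount of 0.1 ended 7. Leaving out a library ended 30 to 41 calls. The cause was not tested. The sign turned for 60S ribosomal protein L35, at 0.0375 under quantile normalization. Of 2520 list counts recomputed, 2277 stayed within 1.5 times. FPKM carries no depth, so low unigenes are limited by an unknown number of reads.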
